A study of Mastomys natalensis with 3 samples.

Results

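Cytosolic ribosomal proteins are the protein building blocks of the ribosome, and their transcripts were followed here across 3 Affymetrix rat expression arrays hybridised with gastric RNA of the rodent Mastomys natalensis, which readily forms gastric carcinoids. Members were taken by annotation alone. They were the non-control probe sets with exactly 1 gene symbol, where that symbol began with Rpl or Rps followed by a digit or by p, or was Rpsa, with the Rps6k kinases left out. This gave 64 probe sets for 44 genes, out of 7006 probe sets for 4736 genes with a single symbol. Of the 44 genes, 30 carried large subunit symbols and 14 small subunit symbols. In 7 of them (Rpl19l4, Rpl36al1, Rpl3l, Rplp1l3, Rps2-ps1, Rps27l and Rps4x-ps9) the symbol marks a pseudogene or a paralogous copy.

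Every sample is described in the labels as enterochromaffin-like (ECL) cells, the endocrine cells that store histamine, enriched from the mucosa of the stomach. In 2 groups the animals had been given loxtidine, a blocker of the histamine H2 receptor, for 8 or for 16 weeks. The remaining group had an ECL cell carcinoid that had arisen on its own. The source field says ECL cells at 8 weeks but mucosa in the other samples, each sample has its own lot label, and there is no untreated group. Each condition had 1 array, and the number, age and strain of the animals are not stated. No difference below therefore has a standard error, a test or a check between replicates, and each value describes these 3 arrays.

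The ribosome is built from a small subunit, which reads the message, and a large subunit, which joins amino acids and holds the tunnel through which the new chain leaves. Most ribosomal proteins are needed in equal amounts, and their genes are transcribed at high levels in most cells, with more ribosomes made in growing and secreting cells. Many ribosomal protein messages start with a run of pyrimidines, the 5′ TOP element, through which mTOR signalling controls their translation. Mammalian genomes hold many processed pseudogenes of these genes, so probes for one of them often match several sequences.

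Values are intensities after quantile normalization of the 3 arrays, and each gene is represented by its brightest probe set. A floor of 12.4, the pooled median of all non-control probe sets, marks the level below which a reading was treated as not measured. Of the 44 member genes, 37 reached the floor on all 3 arrays, 3 on 2 arrays, 3 on 1 array and 1 on none, against 1747 of 4736 genes that reached it on all arrays in the whole series. Rat probes met Mastomys RNA, so a level says nothing about how a gene compares with another gene, and each gene is compared only with itself. Before normalization the median member gene read 83.8 (8 weeks), 180.5 (16 weeks) and 205 (carcinoid), while the median non-control probe set read 10.2, 13.1 and 13.9.

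**Figure D1:**
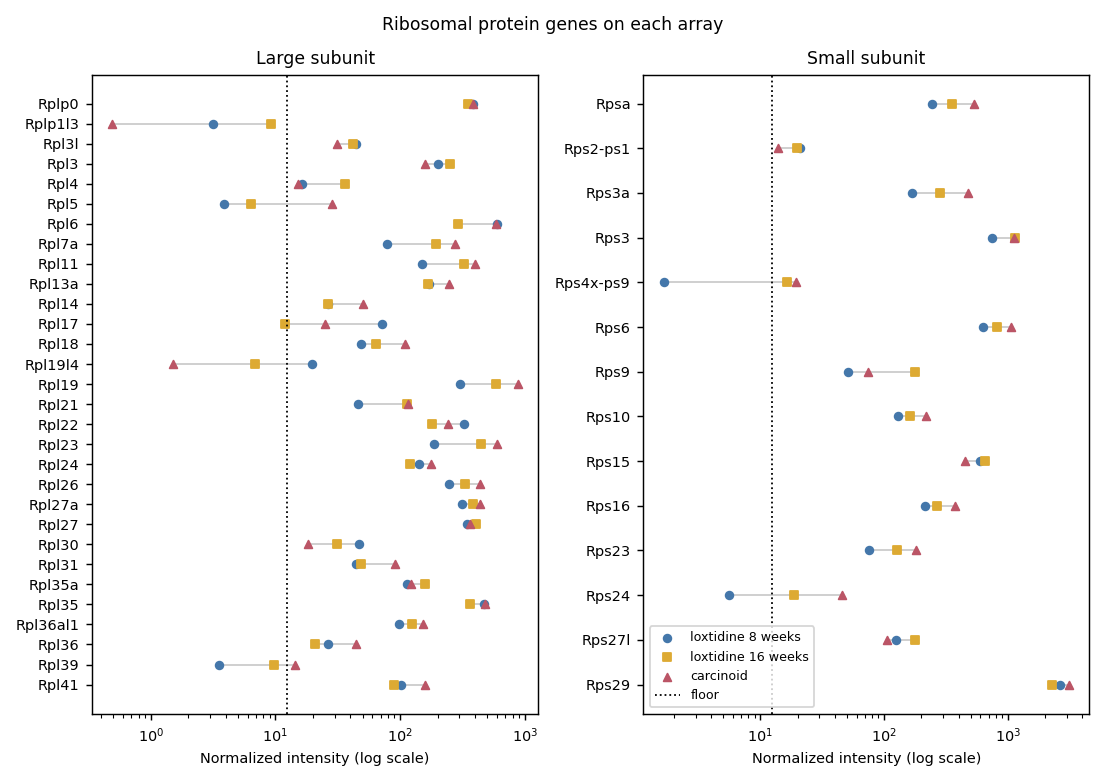
Normalized intensity (log axis) of each of the 44 ribosomal protein genes on the 8-week (circles), 16-week (squares) and carcinoid (triangles) arrays, 1 array per condition, for large subunit (left) and small subunit symbols (right). The dotted line is the floor of 12.4, and in 17 of the 37 genes above it on every array the order from low to high was 8 weeks, 16 weeks, carcinoid.

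Among the 37 genes measured on all arrays, the carcinoid array held the highest reading for 23 genes (62.2%), against 31.2% of all genes measured on all arrays. The 8-week array held the lowest reading for 21 (56.8%), against 37.0% of all genes. The order 8 weeks, 16 weeks, carcinoid from low to high was seen in 17 member genes (45.9%) and in 19.3% of all genes. These 17 were Rpl7a, Rpl11, Rpl14, Rpl18, Rpl19, Rpl21, Rpl23, Rpl26, Rpl27a, Rpl31, Rpl36al1, Rps3a, Rps6, Rps10, Rps16, Rps23 and Rpsa. The reverse order was seen in 3 member genes (8.11%) and in 19.6% of all genes. Across the members, readings on any 2 arrays kept much the same ranking, with Pearson's r of 0.926 between the loxtidine arrays (37 genes). It was 0.899 between the carcinoid and 8-week arrays (38 genes) and 0.941 between the carcinoid and 16-week arrays (39 genes). Over all genes measured on both arrays these were 0.776, 0.763 and 0.850. Each such correlation is over genes, which share the array and its normalization and differ in probe brightness.

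The comparison of 16 with 8 weeks of loxtidine sets a longer against a shorter course of the drug. At 16 weeks 6 of the 37 ribosomal protein genes measured in both samples stood higher by 2-fold or more (16.2%, against 10.4% of all genes measured on both arrays) and 1 was at least 2-fold lower (2.70%, against 9.97%). The median log2 difference was 0.32 over the members and -0.01 over all 2036 genes. The member median stayed above that of all genes as deposited (0.93 against 0.40) and after scaling by the median (0.58 against 0.09). A total of 25 members lay above 0 and 12 below, and 23 of the 37 differed by less than 0.5 on the log2 scale. The median was 0.24 over 25 large subunit genes and 0.43 over 12 small subunit genes.

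The 6 higher genes came from both subunits. Rps9, a small subunit protein near the entry of the messenger RNA, read 50.8 at 8 weeks, 178 at 16 weeks and 73.4 in the carcinoid. The 16-week reading stood 3.5-fold above that at 8 weeks and was the only one of the 3 readings above 100. This was the largest difference among brightest probe sets of members measured on both arrays. Rpl7a, a large subunit protein that binds ribosomal RNA, read 78.5, 195 and 276 in the same order of arrays, a 2.49-fold difference between the first pair. Rpl21, a structural protein of the large subunit, read 46.2, 113 and 117 and was 2.45-fold higher at 16 weeks. For both genes the 8-week array stood alone as the low one. Rpl23 lies at the face where the subunits meet and can bind the p53 regulator Mdm2. It read 186, 443 and 598, 2.38-fold higher at 16 than at 8 weeks. Rpl4, whose loop lines the exit tunnel, read 16.3, 36.3 and 15.2, with 16 weeks 2.23-fold above 8 weeks. Its 8-week and carcinoid readings lay close to the floor, and with a floor of 30.0 the difference falls to 0.27 on the log2 scale. Rpl11, which joins Rpl5 and 5S ribosomal RNA in a particle that also binds Mdm2, read 149, 324 and 401 and was 2.17-fold higher at 16 weeks. Rpl19, which reaches from the large to the small subunit, lay just under the 2-fold line at 0.99 on the log2 scale.

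Of the genes lower at 16 weeks, the large subunit protein Rpl6 read 598, 293 and 587. It was 2.04-fold lower at 16 than at 8 weeks, so the 16-week array alone was low. With a shared median for all its probe sets the sign turned, to 0.26. Its second probe set went the other way, with readings of 61.2, 180 and 151 and a 2.94-fold higher value at 16 weeks. Rpl17, which lines the exit tunnel, read 72.3, 12.0 and 24.9. Because the 16-week reading fell below the floor it is a bound, at least 5.84-fold lower at 16 weeks, or -1.27 on the log2 scale with the floor at 30.0. This gene rests on 1 probe set, and 2 probe sets that list Rpl17 among several symbols were not used for it, so its identity is less sure. It was 1 of 4 members above the floor on a single array of this pair, and 17.7% of all such genes had a bound of at least 2-fold lower. Rpl22 followed at -0.86 on the log2 scale, with readings of 325, 179 and 243. Rpl30 lay at -0.58 and Rpl35 at -0.38.

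Scaling moved these counts. In the values as deposited, 15 of 38 ribosomal protein genes passed 2-fold upwards at 16 weeks and 1 downwards, against 19.9% and 3.99% of all genes. The member median was then 0.93, but the median of all genes also moved, to 0.40. The counts also differed by the kind of probe set. With probe sets limited to those designed on expressed sequence tags (ESTs, short reads usually taken from the 3′ end of a message), 1 of 17 genes was higher and 1 lower, against 10.5% and 8.81% of all genes with such probe sets. The medians were 0.13 and 0.01.

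The comparison of the spontaneous carcinoid with 8 weeks of loxtidine sets Mastomys that had developed a carcinoid against the shorter drug course. It uses the same 8-week array as the comparison before, so the results of these comparisons are not independent. In the carcinoid 10 of the 38 ribosomal protein genes measured in both samples stood higher by 2-fold or more (26.3%, against 10.7% of all genes) and 2 were at least 2-fold lower (5.26%, against 11.2%). The median log2 difference was 0.56 over the members and -0.06 over all 2016 genes. It was 0.49 over 26 large subunit genes and 0.66 over 12 small subunit genes, and 27 of the 38 members lay above 0.

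**Figure D2:**
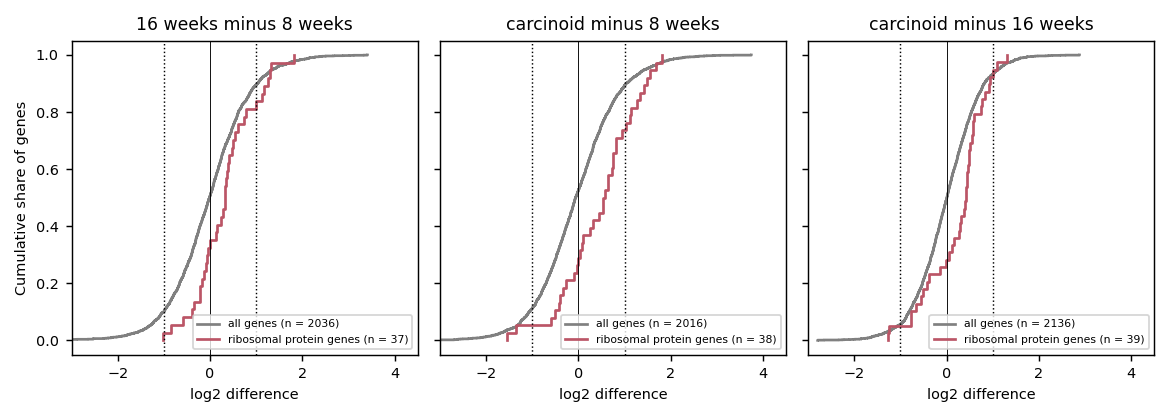
Cumulative share of genes (vertical axis) against the log2 difference between 2 arrays (horizontal axis) for ribosomal protein genes (red) and all genes (grey) measured on both arrays, with dotted lines at 2-fold. The red curve lies to the right of the grey one over most of its range in each panel, with medians of 0.32, 0.56 and 0.41 against -0.01, -0.06 and 0.01.

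Rpl7a and Rpl23, described above, were 3.52-fold and 3.22-fold higher in the carcinoid than at 8 weeks. These were the largest measured differences among members when each is represented by its brightest probe set. The second probe set of Rpl23 differed by -0.06 on the log2 scale, and the median of its sets by 0.81. Second probe sets of Rpl11 and Rps3 were 4.16-fold and 3.59-fold higher. Rpl19 read 300.1, 594 and 880.4 on the 8-week, 16-week and carcinoid arrays and was 2.93-fold higher in the carcinoid. Rpl11 was 2.69-fold and Rpl21 2.53-fold higher. Rpl18, a structural protein of the large subunit, read 48.9, 63.7 and 109 and was 2.22-fold higher, and the carcinoid was the array that stood out. Rpl31, which sits at the rim of the exit tunnel, read 44.0, 48.3 and 90.6 and passed 2-fold narrowly, at 2.06. Rpl14 fell just short, at 0.95 on the log2 scale, with 26.3, 26.4 and 50.8.

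Among small subunit genes, Rps3a, which lies near the exit of the messenger RNA, read 168, 282 and 475. It was 2.82-fold higher in the carcinoid. Rps23, which reaches into the decoding centre, read 75.2, 128 and 180.4 and was 2.4-fold higher. Rpsa, also known as the laminin receptor precursor, read 244, 355 and 533 and was 2.18-fold higher. In all 3 genes the 16-week reading lay between the others. Rps24, mutated in some families with Diamond-Blackfan anaemia, read 5.55, 18.7 and 46.0, so the carcinoid was at least 3.72-fold above 8 weeks, or by 0.62 on the log2 scale with the floor at 30.0. Rpl5 read 3.90, 6.32 and 28.4 and was at least 2.3-fold higher in the carcinoid, the only array on which it was measured. These were 2 of 5 members measured on a single array of the pair, and 20.4% of all such genes had a bound of at least 2-fold higher.

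Of the 11 members below 0, Rpl17 and Rpl30 passed 2-fold. Rpl17 was 2.91-fold lower in the carcinoid than at 8 weeks, on its only probe set. Rpl30, a small RNA-binding protein of the large subunit, read 46.6, 31.3 and 18.3 and was 2.54-fold lower. With the floor at 30.0 its difference shrinks to -0.64. The next lowest members were Rps2-ps1 at -0.58, Rpl3l at -0.51 and Rpl22 at -0.42. As deposited, 24 of 38 members were at least 2-fold higher in the carcinoid and 0 lower, against 24.9% and 3.56% of all genes, with a median of 1.39 against 0.46. With scaling by the median, 16 members were higher and 2 lower, against 13.1% and 8.23% of all genes. With EST probe sets alone, 4 of 17 genes were higher and 0 lower, against 11.3% and 8.86% of all genes with such probe sets. The median of 0.10 lay near the 0.05 of those genes.

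The comparison of the carcinoid with 16 weeks of loxtidine leaves the 8-week array out. Here 3 of the 39 ribosomal protein genes measured in both samples stood higher by 2-fold or more in the carcinoid (7.69%, against 6.74% of all genes) and 2 at least 2-fold lower (5.13%, against 5.62%). Those counts are near the background. The median log2 difference was nonetheless 0.41 over the members and 0.01 over all 2136 genes, with 28 members above 0. It was 0.42 over 25 large subunit genes and 0.40 over 14 small subunit genes. The difference was thus spread over many genes at a small size, and the middle 50% of members lay between -0.08 and 0.57.

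Rps24 was 2.46-fold higher in the carcinoid than at 16 weeks. Rpl36 read 26.7, 20.8 and 44.6 and was 2.14-fold higher. Rpl6, low at 16 weeks alone, was 2-fold higher, just inside the line, while Rpl14 lay just outside it at 0.94 and Rpl31 followed at 0.91. Rpl5 was at least 2.3-fold and Rpl17 at least 2.01-fold higher, 2 of 3 members with 1 array above the floor, against 14.2% of all such genes. Rps9 was 2.42-fold lower and Rpl4 2.38-fold lower in the carcinoid. For both genes the carcinoid reading was nearer to that at 8 weeks than to that at 16 weeks. With a floor of 30.0 the Rpl4 difference shrinks to -0.27 on the log2 scale. Rpl30, Rps27l and Rpl3 followed at -0.77, -0.76 and -0.66. As deposited, 9 of 40 members were higher and 2 lower, against 9.17% and 5.50% of all genes, with a median of 0.65 against 0.10. With a floor of 30.0 the counts were 1 and 1 of 32, against 2.57% and 2.29% of all genes. EST probe sets gave a median of 0.47 over 18 genes, against 0.09 for all genes with such probe sets.

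Over the 3 comparisons, 18 of the 44 genes were at least 2-fold apart in 1 or more, bounds included, and 26 in none. That is 18 of the 43 members that reached the floor on some array, against 40.7% of all 3658 such genes, so the share lies near the background. Rplp0, the base of the stalk that recruits elongation factors and a common reference transcript, read 387, 352 and 384. Its differences were -0.14, -0.01 and 0.12 on the log2 scale, while as deposited it read 253, 372 and 488. The same gene was thus nearly level after quantile normalization and 0.95 higher in the carcinoid than at 8 weeks before it. Rplp1l3, a copy of another stalk gene, was below the floor on every array. Rps6, the protein phosphorylated by the S6 kinases, read 631, 813 and 1060 and was 1.68-fold higher in the carcinoid than at 8 weeks. Rps29, a zinc-binding protein of the small subunit head, read 2628, 2261 and 3126, within 1.38-fold over all pairs. Rps3, at the entry of the messenger RNA channel, read 748, 1140.1 and 1124, with the 8-week array low by 1.52-fold and 1.5-fold.

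The other members below 2-fold differed by similar small steps. Rpl35, at the tunnel exit, read 470.3, 361 and 484. Rpl27 read 343, 404 and 367, and Rpl27a 317, 386 and 434. The reading of Rpl35a was highest at 16 weeks, at 159 against 114 and 122. Rpl26, which lies near the tunnel exit and can bind the p53 message, read 248, 332 and 437. Rps10 read 130.5, 163 and 216, and Rps16 213, 268 and 376, in the same order. Rps16 has a tail that touches the transfer RNA held in the ribosome. Rpl24, which bridges the subunits, read 141, 121 and 176, so its 16-week array was low, as it was for Rpl41 (101, 89.4 and 158) and slightly for Rpl13a (172, 167 and 249). In the values as deposited these genes and Rpl35 were lowest at 8 weeks instead. Rpl3, close to the site where peptide bonds form, was lowest in the carcinoid (201, 252 and 159). So was Rps15, which lies near the incoming transfer RNA (591, 657 and 448). As deposited, both were lowest at 8 weeks.

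The paralogous and pseudogene symbols showed no shared order of the arrays. Rpl3l, a copy of Rpl3 used in muscle, read 44.3, 41.8 and 31.2. Rps27l, a copy of Rps27 known as a p53 target, read 126, 177 and 105, highest at 16 weeks. Rpl36al1 read 97.8, 125 and 153, and Rps2-ps1 20.8, 19.9 and 13.9. Rps4x-ps9 passed the floor at 16 weeks (16.3) and in the carcinoid (19.5), and Rpl19l4 at 8 weeks only (19.5). Rpl39, not one of the copies, passed it in the carcinoid only (14.4). Leaving the 7 copies out, a choice made after seeing the data, changed none of the 2-fold counts, and the medians were then 0.32, 0.61 and 0.44. A probe set for one of these symbols may also catch its parent gene, which could not be told apart here.

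In 17 member genes more than 1 probe set was present, which gives the only measure of error within these arrays. For the brightest pair of probe sets of each gene, the gap between their log2 differences was squared, averaged over genes, halved and brought back by a square root. This spread was 0.86 between the loxtidine arrays (13 genes). It was 0.65 between the carcinoid and 8-week arrays (14 genes) and 0.40 between the carcinoid and 16-week arrays (13 genes). Over all genes it was 0.79, 0.82 and 0.62. A 2-fold difference in 1 gene, which is 1 on this scale, is thus little more than the spread in the first comparison. The spread covers disagreement between probe sets and not variation between animals. In 5 of 13, 4 of 14 and 1 of 13 genes this brightest pair, with both sets measured, lay over 1 apart on the log2 scale.

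**Figure D3:**
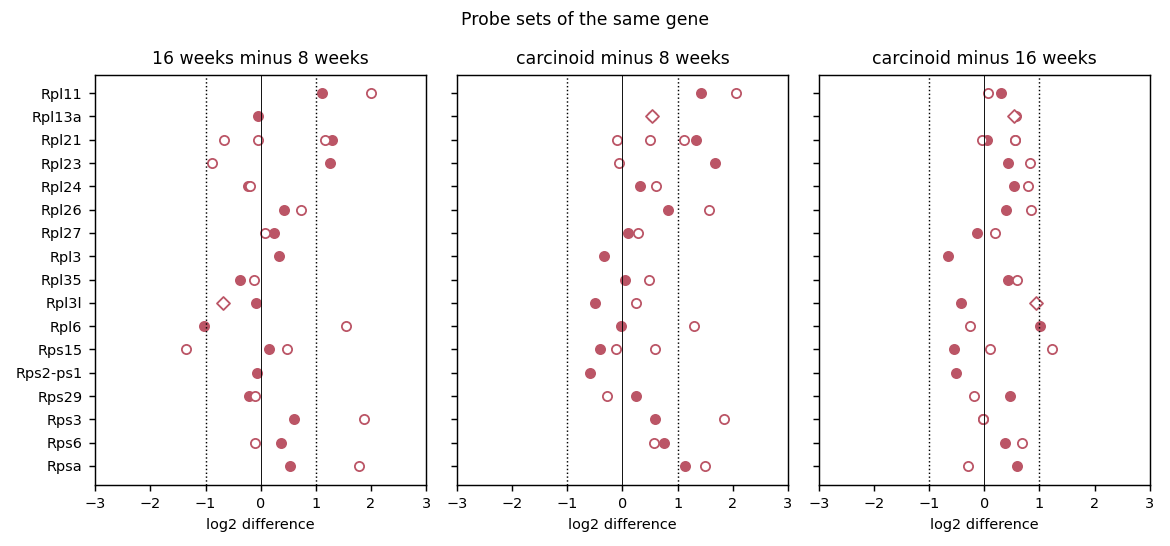
Log2 difference (horizontal axis) of each probe set of the 17 ribosomal protein genes with several probe sets, with the brightest probe set filled, the others open, and bounds as diamonds. For 16 weeks minus 8 weeks, Rpl21, Rpl23, Rpl6 and Rps15 had probe sets on both sides of 0 and over 1 apart.

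Some of the widest gaps were between probe sets made from the same sequence. For Rpl23 the brightest set was 1.25 higher at 16 than at 8 weeks on the log2 scale and its partner -0.88, with partner readings of 187, 101 and 179. For Rps3 the partner differed by 1.87 against 0.61 for the brightest, with readings of 26.7, 97.5 and 96.0. Both Rps3 probe sets put the 8-week array lowest, so they disagreed in size and not in direction. Both Rpsa sets did the same, at 0.54 and 1.79, as did those of Rpl11, at 1.12 and 1.99. Rpl21 had 4 probe sets with differences of 1.29, -0.05, -0.66 and 1.17, and their signs were mixed. Rps15 had 3, at 0.15, 0.48 and -1.35. By contrast the probe sets of Rpl24 gave -0.23 and -0.19, and those of Rpl27 0.24 and 0.08. In carcinoid against 16 weeks the Rpl6 pair gave a 2-fold higher value for the brightest set and -0.25 for its partner. Among other probe sets, Rps15 ranged from -0.55 to 1.23, and Rpl3l gave -0.42 with the brightest set and a bound of 0.94 with its partner.

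The identifiers of many probe sets carry a mark of the kind of sequence they were made from, which the choice of members did not use. Of the 64 member probe sets, 27 were marked as made from ESTs, 14 as made from coding sequences, and 23 had another mark or none. The last class holds entries marked as messenger RNA, the exon-marked probe sets of Rps2-ps1 and unmarked entries. Some unmarked entries, such as that of Rpl41, may also be ESTs. For 16 against 8 weeks the median log2 difference was 0.08 over 21 EST, 0.48 over 13 coding-sequence and 0.32 over 19 other member probe sets. For carcinoid against 8 weeks the corresponding medians were 0.26, 0.82 and 0.61. For carcinoid against 16 weeks they were 0.47, 0.12 and 0.50. The low value of EST probe sets was thus seen in the comparisons that use the 8-week array. Over all probe sets of each kind the medians lay between -0.10 and 0.09 in every comparison.

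**Figure D4:**
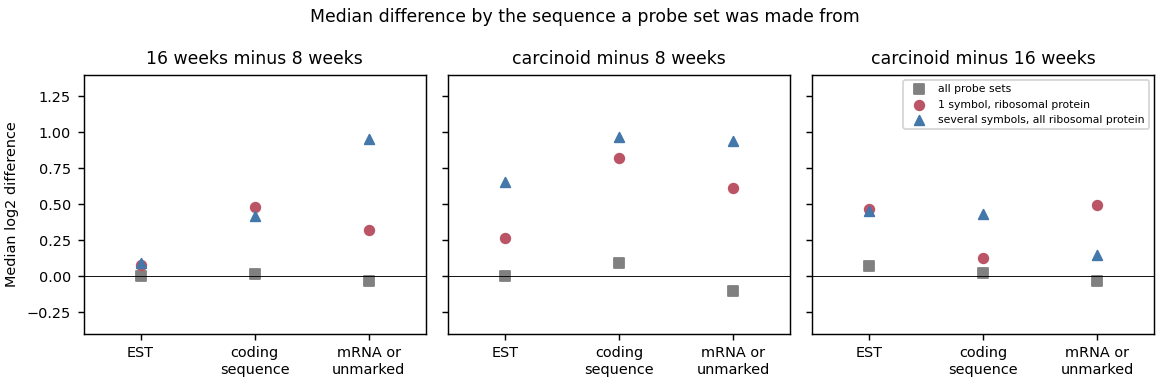
Median log2 difference (vertical axis) of probe sets marked as ESTs, marked as coding sequence, or all others (axis label mRNA or unmarked). Squares are all probe sets, circles are members, and triangles are probe sets with several symbols that are all ribosomal protein symbols. For 16 weeks minus 8 weeks both ribosomal groups lie near 0 with ESTs (0.08 and 0.09) and above it with coding sequence (0.48 and 0.41).

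Beside these values stand those of control probe sets at both ends of the GAPDH and beta-actin messages, which are read for RNA integrity. The deposited 3′ to 5′ ratio of GAPDH was 8.95 at 8 weeks, 1.43 at 16 weeks and 2.31 in the carcinoid. That of beta-actin was 16.1, 6.71 and 11.7. The 8-week array thus had the highest ratios, and its control readings at both the 3′ and 5′ ends were the lowest as deposited. After normalization it held the lowest reading for 21 of the 37 members measured on all arrays, against 37.0% of all such genes. The part of RNA integrity in the ribosomal protein differences was not tested. With 1 array per condition it cannot be told apart from the drug course, the lot or the source field. Carcinoid against 16 weeks uses the arrays with the lower ratios. There both ratios were higher in the carcinoid, and the member median was 0.41 on the log2 scale. The part of RNA integrity in that value was not tested either.

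Probe sets with several symbols were left out of the members, and 31 of the 308 such probe sets carried ribosomal protein symbols alone. They give a measure of the same family on probe sets the rule did not take. Of 28 measured on both arrays, 7 passed 2-fold upwards at 16 weeks and 1 downwards, against 10.8% and 9.83% of all probe sets. Their median was 0.41, against -0.01 for all probe sets. For carcinoid against 8 weeks 12 of 28 were higher and 0 lower, against 11.8% and 11.3% of all probe sets, with a median of 0.88 against -0.04. For carcinoid against 16 weeks 4 of 28 were higher and 0 lower, against 6.98% and 6.28%, with a median of 0.36 against 0.01. With ESTs alone the median for carcinoid against 8 weeks was 0.65 over 8 of these probe sets. These probe sets come from the same arrays, so they are no replicate of the samples, and no gene is named from them.

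Genes that work with the ribosomal proteins were taken from lists. Rack1, a scaffold protein on the small subunit that goes by another kind of symbol, was the only 1 of 4 such symbols with a probe set of its own. It read 604, 930.3 and 1537, the same order as in the 17 members, and was 2.55-fold higher in the carcinoid than at 8 weeks. Of 45 listed genes of ribosome biogenesis and RNA polymerase I, 13 had a probe set with a single symbol and 6 were measured at both 8 and 16 weeks. Of those 6, 1 passed 2-fold upwards at 16 weeks and 0 downwards (median 0.07), against 10.4% and 9.97% of all genes. In carcinoid against 8 weeks 1 of 6 was higher and 1 lower (median 0.54), against 10.7% and 11.2%. Nucleolin, Ncl, which helps to process ribosomal RNA, read 33.6, 80.4 and 108 and was 3.22-fold higher in the carcinoid than at 8 weeks. Nolc1, a nucleolar phosphoprotein, read 11.6, 37.5 and 35.7, at least 3.03-fold higher at 16 weeks than at 8 weeks. Of 1309 genes above the floor on a single array of that pair, 254 had a bound of at least 2-fold higher. Gnl3, nucleostemin, went the other way with 38.5, 32.8 and 18.03 and was 2.13-fold lower in the carcinoid than at 8 weeks. Mybbp1a read 21.9, 14.3 and 33.5, 2.34-fold higher in the carcinoid than at 16 weeks. In that comparison 1 of 7 measured genes was higher and 0 lower (median 0.25), against 6.74% and 5.62% of all genes.

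Translation factors and other genes with 5′ TOP messages showed no 2-fold difference in any comparison among the 5 measured of 6 on the array. Their medians were 0.03, 0.25 and 0.01, in the order of the comparisons above. Of all genes, 10.4%, 10.7% and 6.74% were at least 2-fold higher in the same order, and 9.97%, 11.2% and 5.62% lower. Eef1a1, which brings transfer RNAs to the ribosome, read 284, 310.5 and 397. Eef2, which moves the ribosome along the message, read 420, 429 and 259, lowest in the carcinoid after normalization but at 8 weeks as deposited. Among 7 measured genes of the S6 kinase and mTOR list, only Tsc2, an inhibitor of mTOR, was at least 2-fold apart. It read 25.6, 38.8 and 64.3 and was 2.51-fold higher in the carcinoid than at 8 weeks. In that comparison 10.7% of all genes were at least 2-fold higher. Rps6kb1, which encodes S6 kinase 1, read 44.5, 41.4 and 51.7. The medians of this list were 0.33, 0.22 and 0.04.

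The mitochondrial ribosome is built from other proteins, and few of its genes were measured. Of 14 genes on the array, 5 were measured at both 8 and 16 weeks and all 5 lay above 0 (median 0.46), with Mrpl58 2.78-fold higher. Of 4 measured in carcinoid against 8 weeks, 2 lay above and 2 below 0 (median 0.10), with Mrpl58 2.03-fold higher and Mrpl23 at least 2.24-fold higher in the carcinoid. Mrpl38, Mrpl52 and Mrps6 had bounds below 2-fold there, of at least 1.82-fold, 1.82-fold and 1.94-fold higher. Mrpl40 went the other way, with a bound of at least 1.95-fold lower in the carcinoid than at 8 weeks. Of all genes measured on both arrays, 10.4% (16 against 8 weeks) and 10.7% (carcinoid against 8 weeks) were at least 2-fold higher. Of 7 measured in carcinoid against 16 weeks, 5 lay below 0 (median -0.14), and Mrpl40 was at least 2.19-fold lower in the carcinoid. No mitochondrial reading exceeded 36.4, that of Mrpl13 at 16 weeks, against a floor of 12.4. The difference between the lists was not tested.

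Readings of cell type markers also differed between arrays. Defining markers of fibroblasts, 5 of 5 measured, summed to 1457 at 8 weeks, 566 at 16 weeks and 434 in the carcinoid. The brightest genes weigh most in such sums, and in this one Dcn alone read 1090.5, 317 and 262. The 9 of 10 leukocyte markers on the array summed to 322, 172 and 113. ECL and neuroendocrine markers, 8 of 11 above the floor on some array, summed to 271, 267 and 159. Between 8 and 16 weeks these markers did not move together. Of 6 measured at both 8 and 16 weeks, 3 were higher at 16 weeks, such as Slc18a2 (21.7 and 42.3). The other 3 were lower, such as Syp (57.1 and 33.6). In carcinoid against 16 weeks all 5 measured markers lay below 0 (median -0.68). In carcinoid against 8 weeks 2 lay above and 3 below 0 (median -1.08). Hdc, the enzyme that makes histamine, was below the floor on every array. Parietal cell markers (7 on the array) summed to 1835, 2332 and 1699. This list holds Atp4a, highest at 16 weeks (966, 1449 and 903), Atp4b, highest at 8 weeks (240, 143 and 117), and intrinsic factor. Intrinsic factor, Cblif, read 452, 512 and 386 and is in rodents mainly a chief cell product. Chief cell markers (4) summed to 7986, 10076 and 7776, and mucous cell markers (5) to 1312, 1163 and 1630. The mucous sum is carried by Tff1, a secreted mucosal peptide. Muc5ac, the surface mucin, read 15.8, 168 and 213, 10.6-fold and 13.4-fold above 8 weeks. Its 8-week reading lay close to the floor. At 16 against 8 weeks 3 of the 5 mucous markers lay below 0 (median -0.13), with Tff2 2.32-fold lower (44.8 and 19.3). In carcinoid against 8 weeks all 5 lay above 0 (median 0.15). Smooth muscle markers summed to 35.7, 78.3 and 102. Of the 6 on the array, 0 were measured on both arrays in either comparison with 8 weeks. At 8 weeks only Tagln passed the floor, at 13.9, so the 8-week sum rests largely on unmeasured readings. Fewer cells of a type and less RNA per cell cannot be told apart in such samples, and the part of these shifts in the ribosomal protein readings was not tested.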

How the data were processed

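RNA of 3 samples was measured on 1 array each, and groups came from the description field of the labels. The deposited table holds linear intensity values per probe set. How the authors derived them from the scans is not given in the sources used here. Arrays limit the precision by their number, and no depth applies. Symbols came from the platform annotation supplied with the data. A single symbol was given for 7006 of 8740 non-control probe sets, several for 308 and none for 1426.

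The 8799 probe sets were quantile-normalized, tied values sharing their mean. Readings under the floor, the pooled median (50th percentile, 12.4), were raised to it before log2. Counts and medians use genes at or above the floor on both arrays, and a fold with 1 array below it is a bound. No test was run. The members, lists and naming rule (members at least 2-fold apart, fixed names, and genes whose probe sets disagreed) were chosen with earlier results of these data known. Of each other list up to 4 genes with large differences were named, and some were named after their values were seen. The steps were tested on simulated data. Alternatives changed the scaling, floor, probe set choice and members. Python 3.11.15, numpy 2.4.6, pandas 2.3.3 and matplotlib 3.10.9 were used.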

Additional observations from a re-analysis of the deposited data

How the results depend on the processing

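The member medians stayed above 0, and above the medians of all genes, in the 3 comparisons under all 10 alternatives. The gap to all genes was smallest, at 0.05, with EST probe sets for carcinoid against 8 weeks. Values below are in the order 16 against 8 weeks, carcinoid against 8 weeks, carcinoid against 16 weeks. As deposited, the medians were 0.93, 1.39 and 0.65, against 0.40, 0.46 and 0.10 over all genes. Then 15, 24 and 9 genes were at least 2-fold higher (19.9%, 24.9% and 9.17% of all genes) and 0 lower in the second (3.56%). Scaling by the median gave medians of 0.58, 0.95 and 0.54, against 0.09, 0.09 and 0.03 over all genes. It gave 0 lower in the first (7.56% of all genes) and 16 higher in the second (13.1%). A floor at the 25th percentile gave 3 lower in the first (16.3%) and 5 higher in the third (14.0%). The 75th percentile gave 0 lower in the second (8.12%), and 1 higher and 1 lower in the third (2.57% and 2.29%). Log2 of the value plus the floor gave 1 higher and 1 lower in the third (5.51% and 5.47%). The median of all probe sets gave 0 lower in the first (7.45%). Counting probe sets singly gave 11 higher and 2 lower in the first (10.9% and 9.89%) and 16 higher in the second (11.7%). EST probe sets gave medians of 0.13 and 0.10 in the first and second, against 0.01 and 0.05 over all genes. They gave 1 and 4 higher there (10.5% and 11.3%), 0 lower in the second (8.86%) and 1 lower in the third (4.60%). Probe sets without a suffix gave 0 and 1 lower in the first and second (9.27% and 9.73%). Their median in the third was 0.52, against 0.01 over all genes. Of genes at least 2-fold apart, these turned sign with other probe sets: Rpl21 to -0.66 in the first and -0.10 in the second, with EST sets and with sets without a suffix, and Rpl6 to 0.26 in the first with the median of its sets. Rps6, below 2-fold, turned from 0.37 to -0.11 in the first with sets without a suffix, and Rplp0 from near 0 to 0.56 and 0.95 in the first and second as deposited, and 0.20 and 0.50 with median scaling. Apart from what these alternatives left out, the cause was not tested. No paired analysis was possible because each condition had 1 array.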
